A study of Mus musculus with 22 samples.

Results

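The kinesin and tubulin genes are here the genes of the deposited expression table whose symbol begins with Kif and a digit, with Kifc and a digit, or with Tuba, Tubb or Tubg and a digit. The rule found 43 of the 11208 genes in the table. They were 30 kinesins, the kinesin binding protein gene Kif1bp, 11 tubulins and the pseudogene Tubb4b-ps1. By what is generally known of their roles, 14 kinesins were counted as mitotic, 12 as transport motors and 4 as other kinesins. All 43 passed the filter on low values, which removed no gene of the table. GENCODE M21 holds 60 protein-coding genes that match the rule, and 42 of these were in the table.

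Polyadenylated RNA was sequenced from NIH/3T3 cells, an immortalized mouse fibroblast line, into which a doxycycline-inducible construct had been stably integrated. The construct encoded E2F1, a transcription factor, in what is called the E2F1 line here, and was an empty vector in the EV line. All cells were first starved for 48 h in 0.25% serum, so the 0 h groups are starved cells too. The E2F1 line and the EV line then received 500 ng/ml doxycycline and were sampled at 0, 2, 6 and 12 h. The 0 h libraries had no doxycycline. The EV line was also sampled 2, 6 and 12 h after addition of 10% serum, without doxycycline. Comparisons of the E2F1 change with the serum change therefore also differ in cell line and in doxycycline. This gave 11 groups of 2 libraries. Serum and doxycycline changes in the EV line are measured against the same EV 0 h libraries. No starved library without doxycycline was taken at 2, 6 or 12 h. Changes against 0 h therefore also hold the hours passed, which cannot be told apart from doxycycline or serum. The labels do not say whether replicates were separate cultures, so p-values measure only the spread between these libraries, which may be technical. E2F1 is a factor that switches on genes needed for entry into S phase, and the study set its induction in resting cells beside the response to serum.

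Kinesins are motor proteins that walk along microtubules or take them apart, using ATP. Mitotic kinesins build the spindle, move chromosomes and help to divide the cell, and their transcripts are known to be most abundant in G2 and M phase. Transport kinesins carry vesicles, organelles and cilium components. Microtubules themselves are polymers of alpha- and beta-tubulin, each encoded by several isotype genes, and gamma-tubulin starts new microtubules at the centrosome.

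Values are the authors' normalized read counts. They were compared on the scale log2(value + 1) with limma, and a gene was called when its p-value, adjusted by the Benjamini-Hochberg method over 11208 genes, was under 0.05. Changes are given as the log2 change ± its standard error, with 2 libraries per group. Totals per library ran from 34014608 to 46057140. All 9 fibroblast markers looked for were in the table, and none of the epithelial, endothelial, myogenic or neuronal markers was. Of 4 macrophage markers Csf1r was in the table, at 33 to 735 counts per library. The lowest mean of any gene in the table was 99.6 counts. Absence from it, also of kinesin and tubulin genes, can thus mean a low level and not a lack of expression. The mouse E2f1 gene had 1703 and 1637 counts at E2F1 0 h, 1535 and 1755 at 2 h, 3806 and 3602 at 6 h and 2683 and 2845 at 12 h. It rose at 6 h (1.15 ± 0.11, adjusted p = 9.612e-08) and was not called at 2 h (-0.02 ± 0.11, adjusted p = 0.9463). Serum changed it too, from 1635 and 1655 counts at EV 0 h to 802 and 740 at 2 h and 4615 and 4247 at 12 h. The serum change at 12 h was 1.43 ± 0.11 (adjusted p = 4.122e-09). The E2F1 change minus the serum change at 12 h was -0.70 ± 0.16 (adjusted p = 0.001137). The labels do not say which species' E2F1 the construct holds.

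Some members share sequence that reads cannot place. Of all 100-base stretches in the transcripts of Kifc1, 17% also occur in its close paralog Kifc5b. The shared part was 38.4% for Tuba1a, 46.7% for Tuba1b and 46% for Tuba1c, each with the others, 36.9% for Tubb2a and 26% for Tubb2b. Tubb4b-ps1 shared 38.8% of its stretches, mostly with Tubb4b. Values within these sets are uncertain, since the handling of such reads is not given in the sources used here. The genes of Kif4, Kif18a, Kif20a, Kif2a, Kif7, Kifc2 and Tuba4a overlap the coding genes Pdzd11, Mettl15, Cdc23, Dimt1, Ticrr, Cyhr1 and Stk16, in that order, and those of Tuba1a, Tuba1b, Tubb3, Tubb4b and Tubb4b-ps1 overlap others. The use of strand in the counting is likewise not given.

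After 12 h of doxycycline in the E2F1 line 14 of 14 mitotic kinesins had risen, where 31.8% of all genes tested rose and 29.7% fell. Their median log2 change was 2.21, beside -0.02 over all genes. The changes ran from 0.62 for Kif2a to 2.53 for Kif18b, and no gene of the class had a 12 h library at or under a 0 h library. In bulk RNA more cells that express these genes and more RNA per cell cannot be told apart. At 0 h no mitotic kinesin was called different between the lines by limma, with 2 of 14 at an unadjusted p under 0.05. All 14 estimates were higher in the E2F1 line, by 0.06 to 0.73 (median 0.26). Of all 43 members 4 were called higher (3 transport kinesins and 1 alpha-tubulin) and 1 lower (a beta-tubulin). Tuba4a began at 405 and 361 counts in the E2F1 line and at 213 and 202 in the EV line. Tubb2b began at 1161 and 919, and at 1955 and 1900. At that time 8.86% of all genes were called higher and 6.17% lower in the E2F1 line.

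**Figure D1:**
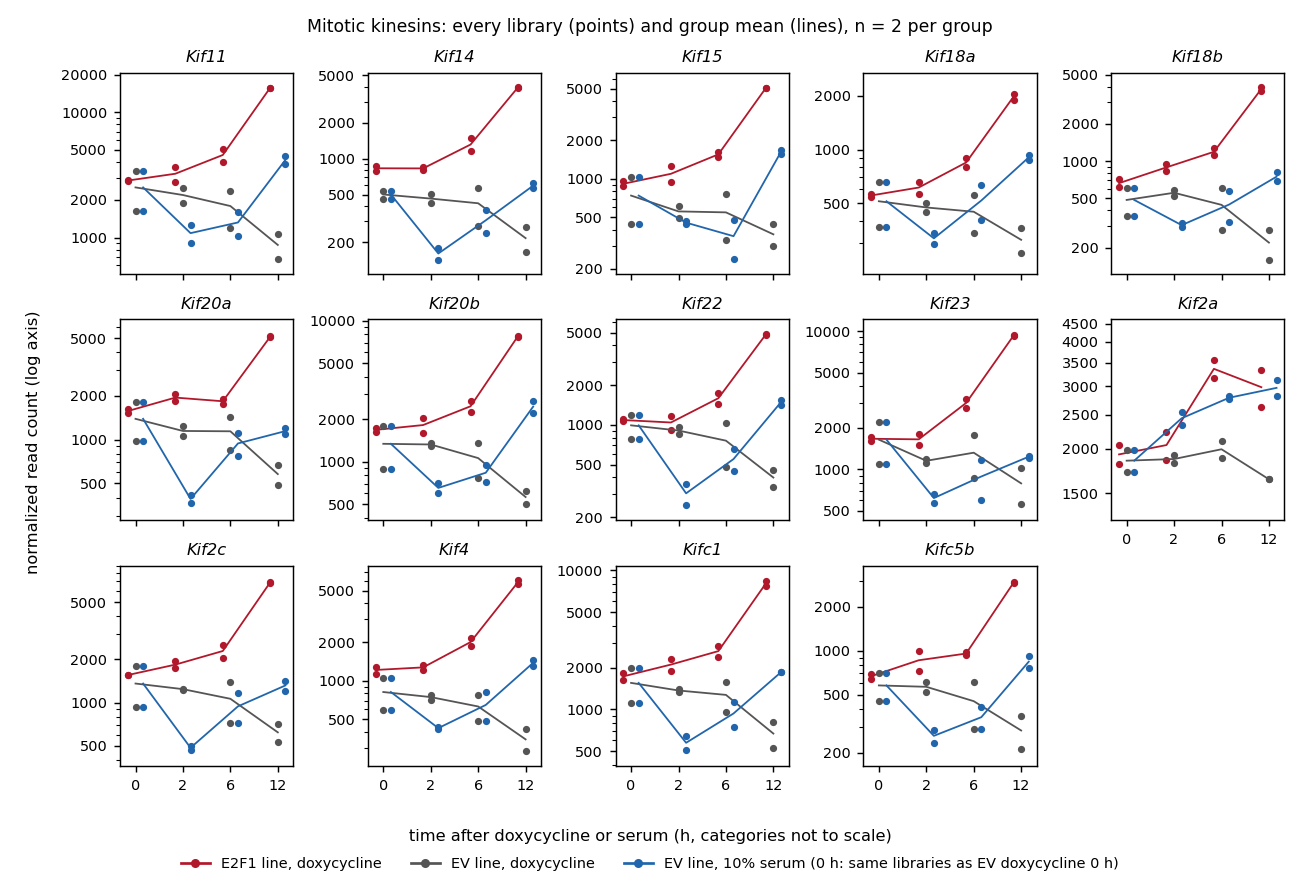
Normalized read counts (log axis) of the 14 mitotic kinesins in every library against time in hours. Points are libraries, lines join group means, red is the E2F1 line, grey the EV line under doxycycline and blue the EV line under serum, whose 0 h points are the same EV libraries. In 13 panels the red 12 h points stand above all other points of the panel, and in Kif2a the red points are at their highest at 6 h.

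The spindle motors that slide microtubules past each other rose strongly. Kif11, which pushes the spindle poles apart and lies on chr19:37376403-37421859 (GRCm38, plus strand), had 2832 and 2867 counts at 0 h and 15628 and 15754 at 12 h. That is a log2 change of 2.46 ± 0.32 (adjusted p = 3.529e-06). The replicates lay close together at each time, and the groups did not overlap. Kif15, which shares this task with Kif11, went from 874 and 953 to 5056 and 5094 counts (2.47 ± 0.36, adjusted p = 1.181e-05). Kifc1, a motor of the opposite direction that focuses the poles, went from 1835 and 1627 to 7751 and 8313 counts (2.22 ± 0.26, adjusted p = 8.877e-07). Its paralog Kifc5b moved with it, by 2.13 ± 0.30.

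Chromosome-bound kinesins rose to a similar degree. Kif4, a chromokinesin that also works at the central spindle, had 1137 and 1287 counts at 0 h and 6062 and 5654 at 12 h (2.27 ± 0.25, adjusted p = 5.079e-07). Kif22, which pushes chromosome arms toward the equator, had 1063 and 1112 and then 4835 and 4822 counts (2.15 ± 0.28, adjusted p = 3.14e-06). In both genes the libraries of a group lay close together and far from the other group.

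Of the motors that shorten or cap microtubule ends, Kif2c, the centromeric depolymerase, had 1554 and 1563 counts at 0 h and 6925 and 6849 at 12 h (2.14 ± 0.28). Kif18a, which damps chromosome movements, had 546 and 563 and then 1900 and 2061 counts (1.83 ± 0.26). Kif18b, its relative at astral microtubules, had 616 and 713 and then 3960 and 3720 counts (2.53 ± 0.32). These 3 genes were far above their start in both 12 h libraries. The depolymerase Kif2a, which also acts outside mitosis, moved less, with 2047 and 1814 counts at 0 h and 3338 and 2630 at 12 h (0.62 ± 0.12, adjusted p = 0.0001715).

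The kinesins of cytokinesis rose as well. Kif23, the motor part of centralspindlin, had 1614 and 1712 counts at 0 h and 9329 and 9194 at 12 h (2.48 ± 0.34, adjusted p = 5.054e-06). Kif20a, which helps to bring Aurora B to the midzone, had 1617 and 1533 and then 5054 and 5172 counts (1.70 ± 0.24). Both genes showed no overlap between the times. Kif20b went from 1741 and 1627 to 7856 and 7702 counts (2.21 ± 0.26), and Kif14, which acts at the midbody, from 785 and 876 to 3980 and 3911 (2.25 ± 0.27). As levels per kb of exon, Kifc1 and Kif11 had the highest means of the class at 12 h, 2353 and 2103 counts per kb, and Kif18a and Kif14 the lowest, 201 and 381. Racgap1, the partner of Kif23 in centralspindlin, rose by 2.16 on the log2 scale, and Cenpe, a kinetochore kinesin whose symbol lies outside the rule, by 1.87.

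Most of the rise came between 6 and 12 h. At 2 h no mitotic kinesin was called in the E2F1 line by limma, and 0 reached an unadjusted p under 0.05. Over all genes 0.865% rose and 0.990% fell at 2 h. At 6 h all 14 had both libraries above both 0 h libraries, as had 38.6% of all genes, and the median log2 change was 0.63. Only 4 of the 14 were called then (Kif18b 0.84, Kif23 0.86, Kif2a 0.80 and Kif4 0.72), a share near the 28.8% of all genes that rose, while 22.9% fell.

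The 6 h count moved with the setting. It was 1 or 2 without any single E2F1 0 h or 6 h library, 2 with quantile normalization or equal totals, and 13 when only the 2 groups compared were fitted. From 6 to 12 h, 13 of 14 rose further (median 1.61), where 15.1% of all genes rose and 20.2% fell. Kif11 rose most over these hours, by 1.79 ± 0.32 (adjusted p = 0.0004308). Kif2a was not called, at -0.18 ± 0.12, adjusted p = 0.2482.

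Counted over all classes and in either direction, 1, 20 and 40 of the 43 members were called in the E2F1 line at 2, 6 and 12 h, where 1.86%, 51.7% and 61.5% of all genes were. Under doxycycline in the EV line they were 2, 0 and 10, beside 7.35%, 0.134% and 4.17% of all genes. Under serum they were 35, 33 and 30, beside 70.9%, 67.5% and 65.7%. The share of members called was thus highest at E2F1 12 h. For the E2F1 change minus the serum change they were 28, 30 and 27, beside 56.7%, 57.9% and 48.8%, and for the E2F1 change minus the EV change 0, 14 and 36, beside 0.143%, 34.5% and 50.5%.

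No mitotic kinesin was called higher under doxycycline in the EV line at any time. In these changes doxycycline and further hours of starvation cannot be told apart. At 2 h none of the 14 was called by limma and 0 had an unadjusted p under 0.05, where 4.93% of all genes rose and 2.43% fell. At 6 h none of the 43 members was called by limma, and 1 had an unadjusted p under 0.05. Over all genes 0.134% rose and 0% fell at 6 h. At 12 h 8 of the 14 mitotic kinesins had fallen (median -1.16), where 3.42% of all genes fell and 0.749% rose. Kif11 had 1643 and 3382 counts in the EV line at 0 h and 669 and 1076 at 12 h (-1.47 ± 0.32, adjusted p = 0.01412). Kif20a had 978 and 1806 and then 486 and 674 counts (-1.21 ± 0.24, adjusted p = 0.008578).

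The EV replicates differed from each other in this gene class. At EV 0 h replicate 2 was higher than replicate 1 for 14 of 14 mitotic kinesins, with a median difference of 0.84 on the log2 scale, beside 0.01 over all genes. Replicate 2 was also higher for 14 of 14 at EV doxycycline 6 h (median 0.96), for 13 at EV doxycycline 12 h (0.57) and for 13 at serum 6 h (0.62). In the E2F1 line it was higher for 9 of 14 at 0 h and 6 at 12 h, with medians of 0.03 and -0.01. The 8 falls at EV 12 h became 13 without EV 0 h replicate 1, 0 without EV 0 h replicate 2, 0 without EV 12 h replicate 1, and 1 when only the 2 groups were fitted.

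Whether the lines responded differently to doxycycline was tested directly. At 12 h 14 of 14 mitotic kinesins changed more in the E2F1 line (median difference 3.39), where 27.3% of all genes did and 23.3% changed less. Differences ran from 0.79 ± 0.17, adjusted p = 0.0006631, for Kif2a to 3.93 ± 0.46, adjusted p = 1.429e-06, for Kif11. The count was 14 also without each single library of the comparison. At 6 h the test called Kif4 (1.08 ± 0.36) and Kif2a (0.69 ± 0.17), 2 of 14, where 22.2% of all genes were higher and 12.3% lower. That count was 13 without EV 0 h replicate 1 and 13 without EV 6 h replicate 2. At 2 h none of the 43 members was called by limma and 2 had an unadjusted p under 0.05, where 0.0535% of genes were called higher and 0.0892% lower.

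Under serum the mitotic kinesins were lower first, and part of them was higher later. At 2 h 11 of 14 had fallen and Kif2a had risen (median -1.13), where 33.5% of all genes fell and 37.5% rose. Kif20a had 978 and 1806 counts at EV 0 h and 417 and 365 at serum 2 h (-1.77 ± 0.24, adjusted p = 3.52e-06). Kif22 had 787 and 1196 and then 358 and 248 counts (-1.70 ± 0.28, adjusted p = 2.779e-05), and Kif14 had 464 and 539 and then 142 and 180 (-1.64 ± 0.27, adjusted p = 3.288e-05). In these 3 genes both serum libraries lay far below both starved ones. Without EV 0 h replicate 2 the 11 falls were 5. At 6 h 8 were below EV 0 h and Kif2a above it, where 31.0% of all genes were lower and 36.5% higher, and 0 were lower without EV 0 h replicate 2 or without serum 6 h replicate 1.

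At 12 h of serum 6 mitotic kinesins were above EV 0 h and 0 below (median 0.64), where 36.0% of all genes were higher and 29.7% lower. They were Kif11, Kif15, Kif18a, Kif20b, Kif2a and Kif4. Kif15 went from 445 and 1033 counts to 1675 and 1559 (1.25 ± 0.36, adjusted p = 0.005679), and Kif20b from 889 and 1794 to 2691 and 2233 (0.96 ± 0.26, adjusted p = 0.003925). Both starved libraries lay below the serum ones, though far from each other. Kif20a, Kif23 and Kif2c were not called, at -0.22, -0.33 and 0.03. Without EV 0 h replicate 1 the test called 1 higher and 1 lower, and without EV 0 h replicate 2 10 higher. From 6 to 12 h of serum 9 rose and 0 fell (median 1.00), where 19.3% of all genes rose and 20.6% fell. Kif15 rose most, by 2.26 ± 0.36 (adjusted p = 7.732e-05). Without serum 6 h replicate 1 those 9 were 6.

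Set against serum, the change in the E2F1 line at 12 h was larger for 12 of 14 mitotic kinesins (median difference 1.60), where 25.0% of all genes were higher and 23.8% lower. Kif23 differed most, by 2.80 ± 0.48 (adjusted p = 0.0001035). Its counts were 9329 and 9194 at E2F1 12 h and 1215 and 1251 at serum 12 h. Kif15 (1.22 ± 0.51, adjusted p = 0.05673) and Kif2a (-0.06 ± 0.17, adjusted p = 0.7906) were not called. At 2 h 10 differed, where 26.6% of all genes were higher and 30.2% lower, and at 6 h 10 differed, where 30.3% were higher and 27.6% lower. The 2 h count was 6 without E2F1 2 h replicate 2, without EV 0 h replicate 2 or without serum 2 h replicate 2. The 6 h count was 4 without EV 0 h replicate 2 and 6 without serum 6 h replicate 1.

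**Figure D2:**
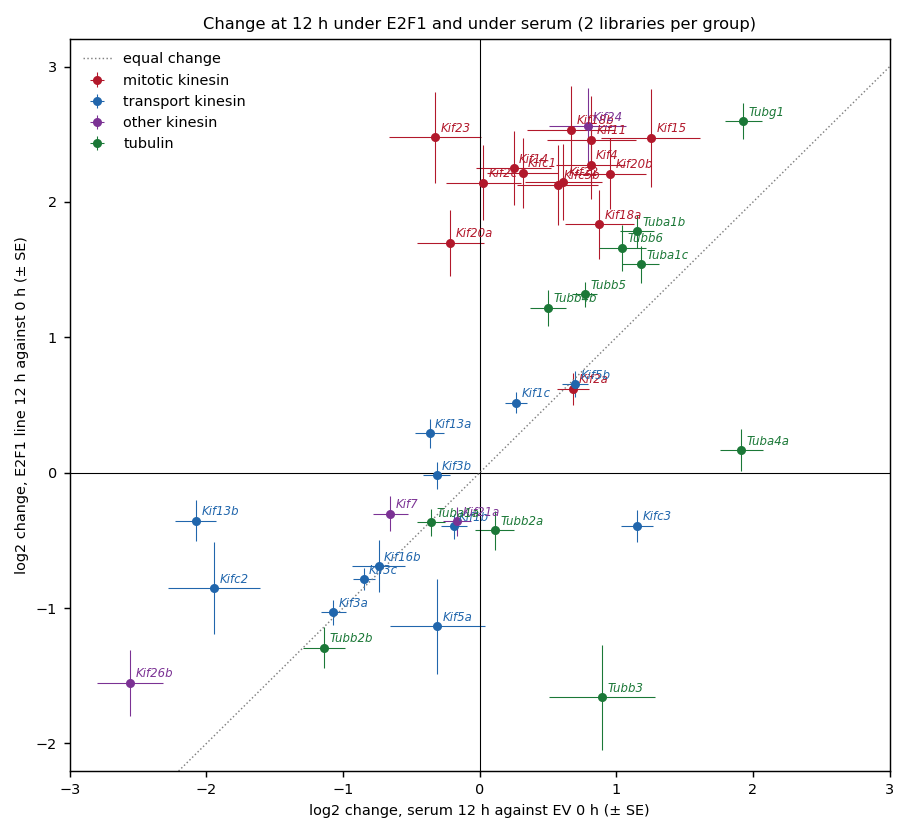
Log2 change at 12 h in the E2F1 line (vertical axis, ± SE) against that under serum (horizontal axis, ± SE), coloured by class, with 2 libraries per group and a line that marks equal change. The mitotic kinesins other than Kif2a lie above the line at 1.70 to 2.53 on the vertical axis, while Tuba4a, Kifc3 and Tubb3 lie far below it.

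The stretch before the transcription start was compared because the mitotic kinesins moved together. RefSeq promoter windows (GRCm38.p6, 250 bases before to 50 after each start) were at hand for 32 of the 43 members, 13 of them mitotic kinesins. Windows were not used here for Kif20a, Kif5a, Kif5b, Kif13b, Kifc2, Kifc3, Kif1bp, Tubb2b, Tubb6, Tubg1 and Tubb4b-ps1. Each window was searched on both strands for TTTGAA or TTCGAA (letters of the cell cycle genes homology region, CHR, known from genes expressed in G2 and M), for CCAAT, and for the E2F letters TTTCCCGC, TTTCGCGC, TTTGCCGC and TTTGGCGC. The lines below give the 80 bases just before the RefSeq start, 5′ to 3′ on the gene's strand, with matches in capitals. Matches on the opposite strand appear as their reverse complements. The CHR then reads TTCAAA. The CCAAT motif then shows as ATTGG. An E2F match can then be GCGCCAAA, and in Kif15 the E2F and CHR letters stand next to each other without overlap. The first 4 are mitotic kinesins that rose, and Kif24 and Kif26b are other kinesins that rose and fell. Kif3a is a transport motor and Tubb5 a tubulin, each given as a single example and not as typical of its class. Tubb5 holds CCAAT farther upstream than the bases printed.
Kif11: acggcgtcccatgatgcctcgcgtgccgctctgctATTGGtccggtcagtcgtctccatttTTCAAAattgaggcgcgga
Kif15: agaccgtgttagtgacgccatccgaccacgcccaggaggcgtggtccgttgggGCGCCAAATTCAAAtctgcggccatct
Kif22: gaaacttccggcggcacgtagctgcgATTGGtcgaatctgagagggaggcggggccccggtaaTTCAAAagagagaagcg
Kif18a: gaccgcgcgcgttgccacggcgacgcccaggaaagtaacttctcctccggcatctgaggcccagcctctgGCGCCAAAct
Kif24: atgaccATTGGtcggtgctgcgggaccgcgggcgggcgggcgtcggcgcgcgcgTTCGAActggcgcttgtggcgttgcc
Kif26b: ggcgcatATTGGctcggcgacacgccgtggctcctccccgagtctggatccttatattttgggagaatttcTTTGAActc
Kif3a: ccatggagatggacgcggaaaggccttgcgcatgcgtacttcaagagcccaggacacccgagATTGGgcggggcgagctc
Tubb5: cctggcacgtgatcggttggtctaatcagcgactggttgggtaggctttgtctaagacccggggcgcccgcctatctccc

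The stretches lie at chr19:37376302-37376381 (plus strand) for Kif11, chr9:122951001-122951080 (plus strand) for Kif15, chr7:127042421-127042500 (minus strand) for Kif22 and chr2:109280658-109280737 (plus strand) for Kif18a. Those of Kif24, Kif26b, Kif3a and Tubb5 lie at chr4:41464849-41464928 (minus strand), chr1:178529045-178529124 (plus strand), chr11:53567289-53567368 (plus strand) and chr17:35838302-35838381 (minus strand). The GENCODE M21 gene begins 51 bases before the RefSeq start in Kif22, 39 in Kif24, 35 in Kif15 and 5 in Tubb5, so positions depend on the annotation.

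CHR letters stood within 50 bases of the start in 9 of 13 mitotic kinesins, 0 of 7 transport kinesins, 2 of 4 other kinesins and 0 of 8 tubulins, beside 6.12% of the 27025 genes with a window. They stood at -19 to -14 in Kif11 and Kif15 and at -17 to -12 in Kif22, counting the base before the start as -1. In Kif18b, Kif20b, Kif23, Kif4, Kifc1 and Kifc5b they began 2 to 30 bases into the transcript. Kif14 and Kif2c held them only farther upstream, and Kif18a and Kif2a held none in the window. Over the whole window CHR letters were in 11 of 13 mitotic kinesins (84.6%) and in 21.7% of all genes. E2F letters were in Kif15 (-27 to -20) and Kif18a (-10 to -3), 2 of 13, and in no other member with a window, beside 2.6% of all genes. CCAAT was in 8 of 13 mitotic, 3 of 7 transport and 2 of 4 other kinesins, in 5 of 8 tubulins and in 41.1% of all genes. Kif26b, which fell, held CHR letters at -9 to -4. A match of letters is a description of the sequence and not a site of binding.

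Among the other kinesins Kif24, a centriolar kinesin that restrains cilium formation, had most of its rise by 6 h. It lies on chr4:41390745-41464887 (GRCm38, minus strand). Its counts in the E2F1 line were 241 and 251 at 0 h, 353 and 280 at 2 h, 1097 and 1022 at 6 h and 1418 and 1492 at 12 h. The 6 h libraries stood far above all earlier ones (2.10 ± 0.28, adjusted p = 5.953e-06), and the 12 h change was 2.56 ± 0.28 (adjusted p = 3.808e-07). From 6 to 12 h it was not called (0.46 ± 0.28, adjusted p = 0.2155). Under serum it had 181 and 249 counts at EV 0 h, 93 and 87 at 6 h and 383 and 353 at 12 h. It was lower at 6 h (-1.23 ± 0.28, adjusted p = 0.0008135) and higher at 12 h (0.79 ± 0.28, adjusted p = 0.01926), the latter not without EV 0 h replicate 1 or serum 12 h replicate 1. The E2F1 change minus the serum change at 6 h was 3.33 ± 0.40 (adjusted p = 1.224e-06), the largest among the 43 members at that time.

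Kif26b, a kinesin without motor activity, fell in the E2F1 line from 951 and 870 counts at 0 h to 314 and 305 at 12 h (-1.55 ± 0.24, adjusted p = 2.617e-05). Under serum it fell from 1081 and 776 counts to 173 and 254 at 6 h and 110 and 217 at 12 h (-2.56 ± 0.24, adjusted p = 6.199e-08). Both stimuli thus left it well below both starved libraries. Kif7, which acts in hedgehog signalling at the cilium tip, had 749 and 859 counts at E2F1 0 h, 1123 and 1070 at 6 h and 613 and 689 at 12 h. It was higher at 6 h (0.45 ± 0.13, adjusted p = 0.006922) and lower at 12 h (-0.30 ± 0.13, adjusted p = 0.04761). The 6 h call was lost without E2F1 0 h replicate 1 or 6 h replicate 1, and the 12 h call without E2F1 0 h replicate 2 or 12 h replicate 1. Kif21a, which curbs microtubule growth at the cell edge, fell by 0.36 on the log2 scale at 12 h, a call lost without E2F1 0 h replicate 2 or 12 h replicate 2. Kif1bp, which binds several kinesins, was not called in the E2F1 line at 12 h (0.05 ± 0.11) and was lower under serum at 2, 6 and 12 h (-0.39, -0.36 and -0.50).

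The transport kinesins split in both directions. At 12 h in the E2F1 line 3 of 12 had risen and 8 had fallen, with a median log2 change of -0.39, where 31.8% of all genes rose and 29.7% fell. At 6 h 3 had risen and 3 fallen, shares near the 28.8% and 22.9% of all genes, and at 2 h Kif5b alone was called, beside 0.865% of all genes higher and 0.990% lower. The 8 falls were 4 without E2F1 0 h replicate 2, with Kif13b, Kif16b, Kif5a and Kifc2 no longer called. From 6 to 12 h 4 fell and 0 rose, where 20.2% of all genes fell and 15.1% rose. Set against doxycycline in the EV line at 12 h, 2 of 12 changed more in the E2F1 line and 7 less. The median difference was -0.65, and 27.3% of all genes changed more and 23.3% less.

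**Figure D3:**
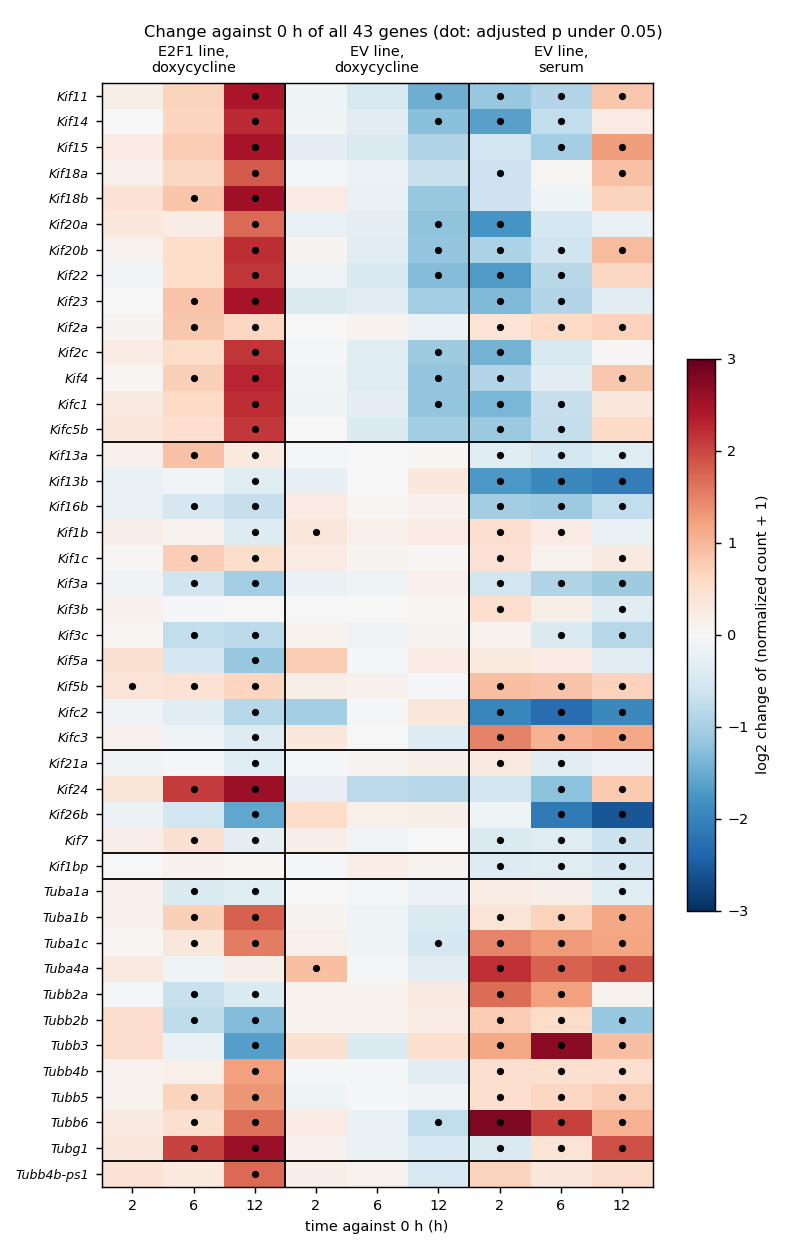
Log2 change of (normalized count + 1) against 0 h for all 43 genes (rows, grouped by class) at 2, 6 and 12 h in the E2F1 line, the EV line under doxycycline and the EV line under serum. Red is higher, blue is lower and a dot marks an adjusted p under 0.05. The mitotic block is red with 14 dots at E2F1 12 h, blue with 8 dots at EV doxycycline 12 h and mostly blue, with 11 falls marked, at serum 2 h.

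Of the motors that carry cargo outward, Kif5b, the ubiquitous conventional kinesin heavy chain, was higher after both stimuli. It had 5541 and 5031 counts at E2F1 0 h, 7002 and 6724 at 2 h, 7562 and 6813 at 6 h and 8725 and 7922 at 12 h. All later libraries lay above both 0 h libraries, and the 12 h change was 0.65 ± 0.09 (adjusted p = 8.857e-06). The 2 h call (0.38 ± 0.09, adjusted p = 0.0458) was lost without each single library of that comparison. Under serum Kif5b went from 4387 and 4880 counts to 8987 and 8355 at 2 h (0.91 ± 0.09, adjusted p = 8.586e-08) and 7865 and 7146 at 12 h (0.70 ± 0.09). Its 12 h changes under E2F1 and serum differed by -0.04 ± 0.13, adjusted p = 0.8258, which was not called.

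Kif1c, a kinesin-3 of vesicle transport, had the highest level per kb of the transport class at E2F1 0 h (1353 counts per kb). It had 10014 and 9681 counts at 0 h, 17152 and 15817 at 6 h and 14000 and 14186 at 12 h, changes of 0.74 ± 0.08 and 0.52 ± 0.08. Kif13a, an endosome motor, had 1468 and 1568 counts at 0 h, 2907 and 2642 at 6 h and 1956 and 1761 at 12 h. It was highest at 6 h (0.87 ± 0.11, adjusted p = 2.623e-06) and fell from 6 to 12 h (-0.58 ± 0.11).

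The kinesin-2 motors, which move cargo into cilia, moved alike only in part. Kif3a had 2157 and 2383 counts at E2F1 0 h, 1488 and 1527 at 6 h and 1155 and 1066 at 12 h (-1.03 ± 0.09, adjusted p = 3.195e-08). Under serum it went from 2317 and 2375 to 1193 and 1042 counts at 12 h (-1.07 ± 0.09, adjusted p = 1.703e-08). Both stimuli left Kif3a below every starved library. Kif3c fell as well, by 0.79 under E2F1 and 0.85 under serum at 12 h. Their partner Kif3b had 1433 and 1598 counts at E2F1 0 h and 1421 and 1569 at 12 h and was not called (-0.02 ± 0.10). Under serum Kif3b was higher at 2 h (0.51 ± 0.10, adjusted p = 0.0001469), a call lost with equal totals, and lower at 12 h (-0.31 ± 0.10, adjusted p = 0.009655), a call lost without serum 12 h replicate 1. All 3 genes were thus lower at serum 12 h, and at E2F1 12 h Kif3a and Kif3c were.

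Kif1b, a motor of mitochondria and synaptic vesicle precursors, had 4815 and 5047 counts at E2F1 0 h, 5472 and 5155 at 6 h and 3977 and 3525 at 12 h. Of these times it was called at 12 h (-0.40 ± 0.09, adjusted p = 0.001414). In the EV line it rose at 2 h of doxycycline, from 4328 and 4019 to 5094 and 5397 counts (0.33 ± 0.09, adjusted p = 0.04045), a call lost without each single library of that comparison. Kif5a, a heavy chain best known from neurons, was scarce and had 180 and 231 and then 112 and 76 counts (-1.14 ± 0.35, adjusted p = 0.008886), a call lost without E2F1 0 h replicate 2 or 12 h replicate 2.

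Under serum 5 of 12 transport kinesins were higher and 5 lower at 2 h, 3 and 6 at 6 h, and 3 and 7 at 12 h. Over all genes 37.5% were higher and 33.5% lower at 2 h, 36.5% and 31.0% at 6 h, and 36.0% and 29.7% at 12 h. Under quantile normalization 2 of the rises changed sign, that of Kif1c at 2 h to -0.082 and that of Kif1b at 6 h to -0.032. Kif13b, a motor of membrane cargo, had 2215 and 1785 counts at EV 0 h, 549 and 658 at 2 h, 610 and 437 at 6 h and 466 and 475 at 12 h (-2.08 ± 0.15, adjusted p = 2.086e-09). Kifc2 had 403 and 204 counts at EV 0 h, 91 and 58 at 2 h, 44 and 76 at 6 h and 64 and 85 at 12 h (-1.94 ± 0.34, adjusted p = 6.6e-05). In both genes all serum libraries lay far below the starved ones. Kifc3, a minus-end motor, had 1142 and 1043 counts at EV 0 h, 3115 and 3059 at serum 2 h (1.499 ± 0.12, adjusted p = 2.339e-09) and 2431 and 2415 at 12 h. In the E2F1 line it went from 1513 and 1327 to 1100 and 1061 counts at 12 h (-0.39 ± 0.12, adjusted p = 0.008256), a call lost without E2F1 0 h replicate 1. Under doxycycline in the EV line it went from 1142 and 1043 to 813 and 853 counts and was not called (-0.39 ± 0.12, adjusted p = 0.07611), and the difference between the lines was -0.0012 ± 0.17 (adjusted p = 0.9953). The E2F1 change minus the serum change at 12 h was -1.54 ± 0.17 for Kifc3 (adjusted p = 8.772e-07) and 1.72 ± 0.21 for Kif13b (adjusted p = 3.557e-06).

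Tubulin genes rose and fell by isotype. At 12 h in the E2F1 line 6 of 11 had risen (Tuba1b, Tuba1c, Tubb4b, Tubb5, Tubb6 and Tubg1) and 4 had fallen (Tuba1a, Tubb2a, Tubb2b and Tubb3), where 31.8% of all genes rose and 29.7% fell. At 6 h 5 had risen and 3 fallen, where 28.8% of all genes rose and 22.9% fell. At 2 h none was called by limma, with 2 at an unadjusted p under 0.05, where 0.865% of all genes rose and 0.990% fell. Without E2F1 12 h replicate 1 the 4 falls were 2, those of Tubb2b and Tubb3. At 6 h quantile normalization or equal totals left 3 rises, without Tuba1c and Tubb6, as did leaving out E2F1 0 h replicate 1, 0 h replicate 2 or 6 h replicate 1.

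**Figure D4:**
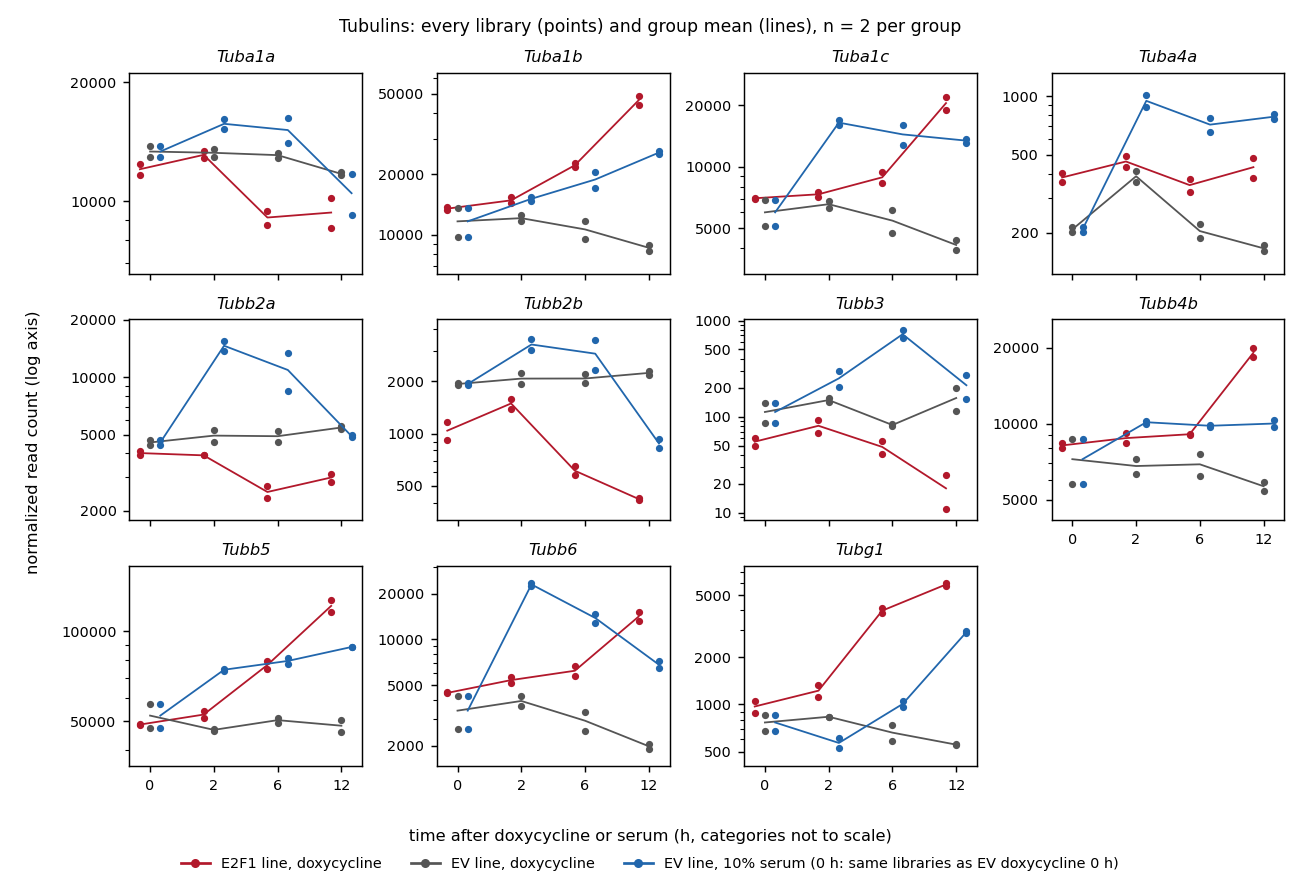
Normalized read counts (log axis) of the 11 tubulin genes in every library against time in hours, with points for libraries, lines through group means and the colours red for the E2F1 line, grey for the EV line under doxycycline and blue for serum. Tubg1 climbs in red from 6 h on, Tubb6, Tuba4a and Tubb2a are far up in blue at 2 h, and Tubb3 and Tubb2b end lowest in red.

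Among the alpha isotypes, Tuba1b, a major isotype of dividing cells, had 13775 and 13225 counts at E2F1 0 h, 22628 and 21673 at 6 h and 44252 and 48703 at 12 h (1.78 ± 0.12, adjusted p = 1.59e-09). Tuba1c had 6969 and 7076, then 9479 and 8297, then 18906 and 22032 counts (1.54 ± 0.14, adjusted p = 2.877e-08). Tuba1a had 12427 and 11685, then 9482 and 8733, then 8545 and 10205 counts (-0.37 ± 0.10, adjusted p = 0.004778). Tuba1a thus fell while Tuba1b and Tuba1c, also on chromosome 15, rose, and its 12 h call was lost without E2F1 12 h replicate 1. Under doxycycline in the EV line Tuba1a was at -0.19 ± 0.10 at 12 h, not called, and the difference between the lines was not called either (-0.18 ± 0.15, adjusted p = 0.3167). Tuba4a, an isotype whose gene encodes no terminal tyrosine, had 405 and 361 counts at 0 h and 484 and 381 at 12 h and was not called (0.17 ± 0.16).

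The most abundant beta isotype, Tubb5, had 48566 and 49062 counts at 0 h, 79841 and 74639 at 6 h and 115778 and 127612 at 12 h in the E2F1 line (1.32 ± 0.09, adjusted p = 1.73e-09). Tubb4b had 8016 and 8407 counts at 0 h, 9152 and 9033 at 6 h and 18325 and 19930 at 12 h (1.22 ± 0.13, adjusted p = 3.835e-07). Tubb6 had 4422 and 4495, then 6743 and 5721, then 13217 and 15040 counts (1.66 ± 0.17, adjusted p = 1.536e-07). These 3 beta isotypes showed no overlap between 12 h and 0 h. The isotypes better known from neurons went the other way. Tubb2b had 1161 and 919 counts at 0 h and 415 and 427 at 12 h (-1.29 ± 0.15, adjusted p = 9.385e-07). Tubb3 had 60 and 50 and then 11 and 25 counts (-1.66 ± 0.39, adjusted p = 0.001168), low values for this table. Tubb2a had 4114 and 3914 counts at 0 h, 2336 and 2691 at 6 h and 2850 and 3134 at 12 h (-0.43 ± 0.14, adjusted p = 0.01533). Its 12 h call was lost without E2F1 0 h replicate 1 or 12 h replicate 1.

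Serum raised most tubulins within 2 h. At that time 9 of 11 were higher and Tubg1 was lower, where 37.5% of all genes rose and 33.5% fell, and the class median was 0.75. At 6 h 10 were higher and 0 lower (median 0.70), where 36.5% of all genes were higher and 31.0% lower. At 12 h 8 were higher and 2 lower (median 0.90), where 36.0% of all genes were higher and 29.7% lower. Scaled to equal totals the median of all genes at 2 h shifted by -0.37, and 5 of the 9 rises at 2 h were left. Quantile normalization left 6, and 6 were left without EV 0 h replicate 1.

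Tubb6, an isotype known to alter microtubule stability, had 2570 and 4249 counts at EV 0 h, 22470 and 23485 at serum 2 h, 14756 and 12917 at 6 h and 7189 and 6458 at 12 h. Its change was 2.80 ± 0.17, adjusted p = 6.357e-11, at 2 h and 1.04 ± 0.17 at 12 h, and from 6 to 12 h it fell (-1.02 ± 0.17, adjusted p = 0.0001062). Tuba4a had 213 and 202 counts, then 1008 and 884, 777 and 652, and 762 and 807 (2.18 ± 0.16, adjusted p = 6.829e-10, at 2 h). Tubb6 was thus highest at 2 h and came down later, and Tuba4a was still far above both starved libraries at 12 h. Tubb2a had 4676 and 4445, then 13790 and 15417, 13376 and 8443, and 4866 and 4972 counts. It was up at 2 h (1.68 ± 0.14) and not called at 12 h (0.11 ± 0.14, adjusted p = 0.5119). Tuba1c rose from 5113 and 6874 to 15967 and 16898 counts at 2 h (1.47 ± 0.14) and stood at 13748 and 13095 at 12 h, above both starved libraries throughout.

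Tubb3 had 86 and 138 counts at EV 0 h, 651 and 790 at serum 6 h (2.71 ± 0.39, adjusted p = 6.49e-06) and 152 and 273 at 12 h. Tubb2b had 1955 and 1900 counts at EV 0 h, 3018 and 3487 at 2 h, 3449 and 2313 at 6 h and 927 and 827 at 12 h, so it was first above and then below its start (-1.14 ± 0.15, adjusted p = 3.721e-06, at 12 h). From 6 to 12 h of serum 5 tubulins fell (Tuba1a, Tubb2a, Tubb2b, Tubb3 and Tubb6) and 2 rose (Tuba1b and Tubg1). Over all genes 20.6% fell and 19.3% rose. Tubb5 and Tubb4b were up by 0.77 ± 0.09 and 0.50 ± 0.13 at 12 h. Under doxycycline in the EV line Tuba4a was higher at 2 h, with 364 and 413 counts against 213 and 202 (0.90 ± 0.16, adjusted p = 0.00258). Tuba1c (-0.52 ± 0.14) and Tubb6 (-0.73 ± 0.17) were lower in that line at 12 h. Both of these calls were lost without EV 0 h replicate 2, without either EV 12 h library and when only the 2 groups were fitted.

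The isotype make-up of the tubulin RNA shifted with both stimuli. Levels per kb of exon were summed over the 4 alpha genes and over the 6 beta genes, and each gene's percentage was taken, as a description with no test (mean ± SD, n = 2). Tuba1a made up 39.2% ± 0.62 of the alpha level in the E2F1 line at 0 h, 24.2% ± 0.21 at 6 h and 13.3% ± 0.55 at 12 h. Tuba1b went from 42.2% ± 0.044 to 56.7% ± 1.1 and 63.5% ± 1. By these values the E2F1 line changed from similar parts of these isotypes to mostly Tuba1b. Tuba1a and Tuba1b share 38.4% and 46.7% of their 100-base stretches with the other genes of the set. How such reads were counted is not given, and the SD does not cover this uncertainty. Under serum Tuba1a went from 45.7% ± 4.4 at EV 0 h to 36.0% ± 0.86 at 2 h and 22.7% ± 3.4 at 12 h, while Tuba1c stood at 16% ± 1.1 and 29.7% ± 0.75 at 0 and 2 h. Among the beta genes Tubb5 held the largest percentage in every group. Tubb6 held 5.67% ± 1.2 at EV 0 h and 19.9% ± 0.21 at serum 2 h, and Tubb2a went from 10.7% ± 0.42 to 3.47% ± 0.0081 in the E2F1 line between 0 and 12 h. In the EV line under doxycycline Tuba1a was at 50.2% ± 1.1 at 12 h.

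**Figure D5:**
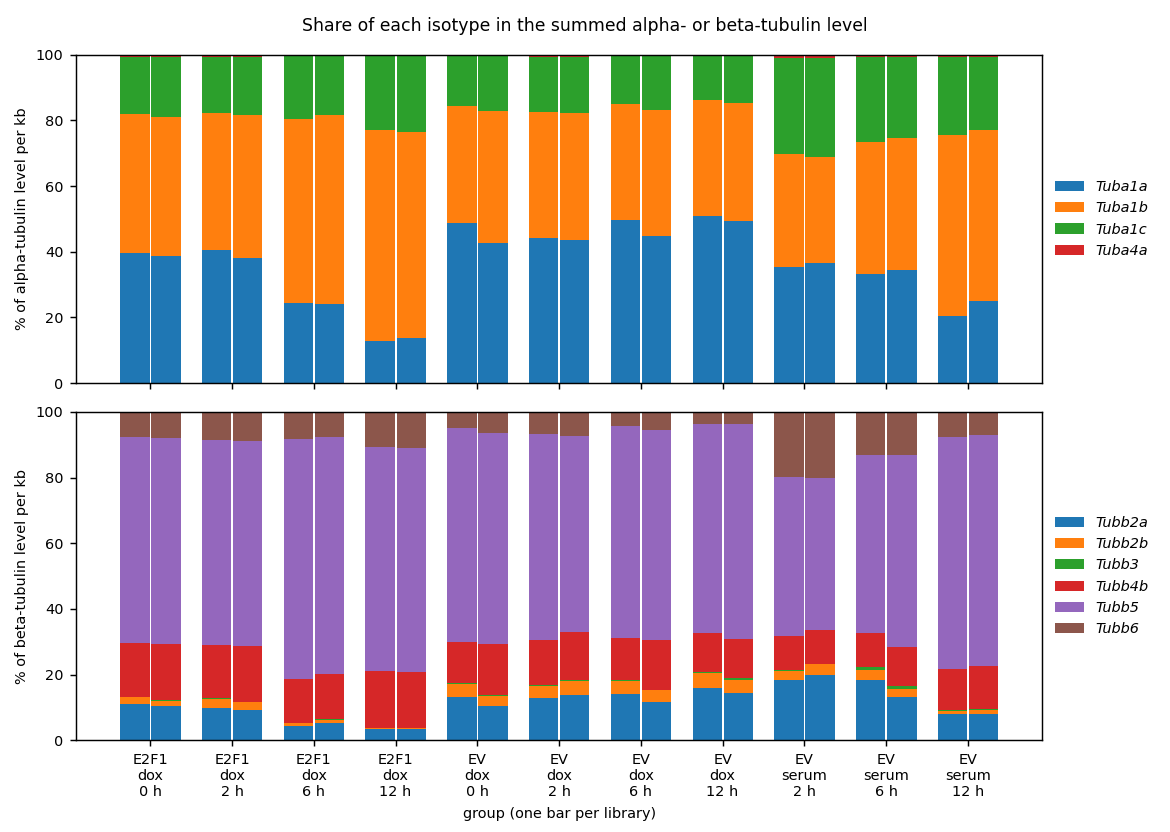
Percentage of the summed alpha-tubulin level and of the summed beta-tubulin level per kb held by each isotype, with 1 stacked bar per library and 2 bars per group. Tuba1a shrinks to 13.3% in the E2F1 line at 12 h and Tubb6 widens to 19.9% at serum 2 h.

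Gamma-tubulin was far up by 6 h. Tubg1, on chr11:101119938-101126419 (GRCm38, plus strand), had 1055 and 886 counts at E2F1 0 h, 1124 and 1326 at 2 h, 4134 and 3823 at 6 h and 5758 and 5936 at 12 h. By 6 h its log2 change was 2.04 ± 0.13 (adjusted p = 7.2e-10), and by 12 h 2.60 ± 0.13 (adjusted p = 4.98e-11). Under serum it had 672 and 862 counts at EV 0 h, 525 and 610 at 2 h, 1049 and 965 at 6 h and 2933 and 2868 at 12 h. The large serum change thus came between 6 and 12 h. Tubg1 was lower at serum 2 h (-0.43 ± 0.13, adjusted p = 0.008031), a call lost with quantile normalization and without EV 0 h replicate 2 or serum 2 h replicate 1, and higher at 12 h (1.93 ± 0.13, adjusted p = 1.223e-09). At 6 h the E2F1 change exceeded the serum change by 1.64 ± 0.19 (adjusted p = 8.307e-07). At 12 h the excess was 0.67 ± 0.19 (adjusted p = 0.006921).

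Compared with serum directly, 5 of 11 tubulins changed more in the E2F1 line at 12 h (Tuba1b, Tubb4b, Tubb5, Tubb6 and Tubg1) and 3 less (Tuba4a, Tubb2a and Tubb3), where 25.0% of all genes changed more and 23.8% less. The largest gap was that of Tubb3, at -2.56 ± 0.55, adjusted p = 0.0008531. At 6 h 7 were lower and Tubg1 was higher, where 27.6% of all genes were lower and 30.3% higher. At 2 h 5 were lower (Tubb6 -2.52 ± 0.24) and Tubg1 was higher, where 30.2% of all genes were lower and 26.6% higher. Of those lower at 2 h, Tubb5 (-0.40 ± 0.13) changed sign under quantile normalization, to 0.060. Set against doxycycline in the EV line at 12 h, 6 tubulins changed more and 3 less (27.3% and 23.3% of all genes), with Tubg1 at 3.05 ± 0.19 and Tubb6 at 2.39 ± 0.24. The tests against serum and against EV doxycycline share the EV 0 h libraries. The pseudogene Tubb4b-ps1 had 106 and 92 counts at E2F1 0 h and 311 and 331 at 12 h (1.69 ± 0.32).

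Lists of partner genes were counted in the same fit, in which 31.8% of all genes rose and 29.7% fell at E2F1 12 h, 36.0% and 29.7% at serum 12 h, and 28.8% and 22.9% at E2F1 6 h. Of 17 genes for tubulin folding and the gamma-tubulin ring, all in the table, 7 rose and 3 fell at E2F1 12 h, and 10 rose and 3 fell at serum 12 h. At E2F1 6 h 5 rose, led by Tubgcp4 (1.60) and Tubgcp3 (1.298), both parts of the ring in which gamma-tubulin sits, and Mzt1 (0.91), a small adaptor of it, and 2 fell. At 12 h Tube1 (1.76), the gene of epsilon-tubulin, Tubgcp3 (1.59) and Tubgcp4 (1.34) led. The tubulin cofactor gene Tbcc fell by 0.90 at E2F1 12 h and rose by 1.97 at serum 2 h. Of 17 kinesin partners 16 were in the table, and 4 rose and 8 fell at E2F1 12 h, with 3 and 7 at serum 12 h. The kinesin light chain Klc2 fell by 1.62 and Klc4 by 1.38 at E2F1 12 h, while at serum 2 h Klc2 rose (1.35) and Klc4 fell by 2.33.

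Of 37 microtubule-associated proteins and modifying enzymes 29 were in the table, with 12 higher and 9 lower at E2F1 12 h and 9 higher and 10 lower at serum 12 h. Over all genes the shares were 31.8% higher and 29.7% lower at E2F1 12 h, and 36.0% and 29.7% at serum 12 h. Stmn1, which sequesters tubulin dimers, rose by 2.58, Map2 by 2.12 and Fignl1 by 2.10 at E2F1 12 h. At 6 h Ttl, the ligase that puts the terminal tyrosine back on alpha-tubulin, had led with 1.87. Of 26 genes of cytoplasmic dynein and dynactin, the motor of the opposite direction, 23 were in the table, with 5 higher and 10 lower at E2F1 12 h and 7 higher and 5 lower at serum 12 h. Nde1, a dynein regulator, rose most (1.18), and Dynlt3, a dynein light chain, fell by 0.85. The list medians at E2F1 12 h were 0.28 for folding and the ring, -0.23 for kinesin partners, 0.23 for the associated proteins and -0.12 for dynein and dynactin, beside -0.02 over all genes.

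The authors' deposited tables list genes only from a log2 change of about 2 in size upward and held 13 of the 43 members at E2F1 12 h, among 510 genes. These were 11 mitotic kinesins, Kif24 and Tubg1, led by Tubg1 with a log2 change of 2.60 in the authors' deposited table. At E2F1 6 h the authors' deposited table held Kif24 (2.14) and Tubg1 (2.07), and at 2 h no member. The serum tables held Tubb6 and Tuba4a at 2 h, Tubb6, Tubb3, Kif26b and Kifc2 at 6 h, and Kif13b and Kif26b at 12 h, and those for doxycycline in the EV line held no member.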

How the data were processed

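Gene values are normalized counts, a score computed by the authors and deposited as whole numbers, 1 per gene and library, in 22 libraries of 11 groups. The submitters' processing notes name FastQC, Trimmomatic, HISAT2, featureCounts, DESeq2 and the build mm10. Versions, the counting of reads with several places, the use of strand and the scaling are not given in the sources used here. The authors' deposited comparison tables hold a log2 fold change and an adjusted p-value and list only genes with a change of about 2 or more, so they were used only to say which members they list. Groups were taken from the sample labels. Raw read depth was not used here. Precision rests on the spread between the 2 libraries of a group, pooled for each gene over all 11 groups. A gene thus has the same standard error in every comparison of 2 groups, also where its libraries lie closer together. For Kif11 it was 0.32 both at E2F1 12 h and at EV doxycycline 12 h against 0 h.

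The tests used limma 3.58.1 (R 4.3.3) on log2(value + 1), with 1 mean per group, all 22 libraries, a trended variance and 11 residual degrees of freedom, and p-values were adjusted over 11208 genes by the Benjamini-Hochberg method (threshold 0.05). A fold change on this scale understates the change of genes with low values. A filter of at least 10 in at least 2 libraries removed no gene. On simulated data for the E2F1 line at 12 h against 0 h, 200 of 11208 genes were changed. The fit called 83 of 100 genes changed 2-fold and 96 of 100 changed 4-fold in the right direction, and 6 unchanged genes. Each simulated gene varied independently of the others. In the data 61.5% of genes were called in this comparison, and EV replicates differed together across the mitotic kinesins. The simulated rates therefore do not carry over to these data. Alternatives were another pseudocount, a mean of at least 500, quantile normalization, equal totals, a replicate block, a test against 1.5-fold, only the groups compared, and each library left out. Python 3.11.15 with pandas 2.3.3 and matplotlib 3.10.9 made the tables and figures, and numpy 2.4.6 and scipy 1.17.1 the sums. Coordinates are those of GENCODE M21 on GRCm38, the assembly also called mm10.

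Library values are printed for a set list of kinesins and all tubulins and for up to 4 members of each class with the largest change in each direction. Any member may be named with its change, and of each partner list up to 3 genes per direction. Where library values of another member are printed (Kif2a, Kif3b, Kif5a and Tubb4b-ps1, for example), they complete the account of its class and were chosen after its values were seen. Members and lists were chosen with earlier results of these data known.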

Additional observations from a re-analysis of the deposited data

Results flagged for a closer look

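The E2F1 line was set beside doxycycline in the EV line, which is a control, and beside serum. Genes are listed whose changes in both settings were called in opposite directions and whose difference was called too. Calls are by limma (Benjamini-Hochberg adjusted over 11208 genes). The called differences are part of this rule and add no further support. How many of all genes meet the rule was not counted, so the numbers of genes are no result about the members. Differences are on the log2 scale.

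At 12 h the doxycycline change in the E2F1 line was upward and that in the EV line downward for 8 mitotic kinesins and 2 tubulins. The E2F1 change minus the EV change was 3.93 for Kif11, 3.49 for Kif14, 2.91 for Kif20a and 3.38 for Kif20b. It was 3.45 for Kif22, 3.21 for Kif2c, 3.47 for Kif4 and 3.40 for Kifc1. For the tubulins Tuba1c and Tubb6 it was 2.05 and 2.39. The falls of these 10 genes in the EV line were not called without EV 0 h replicate 2 or without EV 12 h replicate 1. Those of Tuba1c and Tubb6 were not called without EV 12 h replicate 2 either.

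At 6 h the E2F1 change minus the serum change was 1.73 for Kif23, 1.39 for Kif13a, 3.33 for Kif24 and 0.82 for Kif7, all higher under E2F1 and lower under serum. It was -1.90 for Tubb2a and -1.31 for Tubb2b, which were lower under E2F1 and higher under serum. The serum fall of Kif23 was not called without EV 0 h replicate 2 or serum 6 h replicate 1.

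At 12 h the E2F1 change minus the serum change was 0.66 for Kif13a, which was higher under E2F1 and lower under serum. It was -1.54 for Kifc3 and -2.56 for Tubb3, with the opposite directions. The E2F1 rise of Kif13a was 0.29 ± 0.11 (adjusted p = 0.02644), and its E2F1 change minus the EV change under doxycycline was not called. The E2F1 fall of Kifc3 was not called without E2F1 0 h replicate 1, and its change under doxycycline in the EV line was -0.39 as well (not called, adjusted p = 0.07611). The serum rise of Tubb3 at 12 h was not called without EV 0 h replicate 1 or serum 12 h replicate 2, nor with equal totals.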

How the results depend on the processing

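Of 360 called changes of members, 138 were called the same way under every alternative. The 14 rises of mitotic kinesins in the E2F1 line at 12 h were 14 in each of these except the test against 1.5-fold, which called 13. The number of the 43 members called under the stricter test against 1.5-fold was 0, 2 and 25 at 2, 6 and 12 h in the E2F1 line, in place of 1, 20 and 40. It was 0 in place of 2 and 0 in place of 10 at 2 and 12 h of doxycycline in the EV line, and 14, 12 and 12 in place of 35, 33 and 30 under serum. For E2F1 minus EV at 6 h it was 2 in place of 14, for E2F1 minus serum 12, 12 and 11 in place of 28, 30 and 27, for the lines at 0 h 0 in place of 5, and for 12 h against 6 h it was 3 in place of 29 in the E2F1 line and 8 in place of 20 under serum. With only the groups compared it was 3 at E2F1 2 h, 1 at EV doxycycline 2 h, 1 at EV doxycycline 12 h and 3 for the lines at 0 h, and with a mean of at least 500 it was 1 at EV doxycycline 2 h and 3 for the lines at 0 h. Leaving out 1 library gave 0 to 0 members at E2F1 2 h, 13 to 17 at E2F1 6 h, 1 to 3 at EV doxycycline 2 h, 0 to 18 at EV doxycycline 12 h, 21 to 34 at serum 6 h, 10 to 27 for E2F1 minus EV at 6 h and 2 to 8 for the lines at 0 h. The cause was not tested.

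Signs changed with the scaling. Under quantile normalization the serum 2 h change was -0.082 for Kif1c, -0.10 for Kif21a, -0.31 for Tuba1a and -0.13 for Tuba1b, and with equal totals it was -0.11 for Kif21a and -0.26 for Kif3c. The E2F1 minus serum difference at 2 h was 0.14 for Kif1c, 0.42 for Tuba1a and 0.060 for Tubb5 under quantile normalization and 0.31 for Kif3c with equal totals. At serum 6 h quantile normalization gave -0.032 for Kif1b and -0.25 for Kif1c. The median of all genes moved by -0.12 at E2F1 6 h and -0.11 at E2F1 12 h under quantile normalization, and by -0.37 at serum 2 h and -0.21 at serum 6 h with equal totals.

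The replicate numbers were not taken to pair the samples, since same-numbered libraries correlated above 0.1 in 18 of 55 pairs of groups (range -0.28 to 0.45). Among the EV doxycycline groups at 0, 6 and 12 h all 3 correlations were above 0.1 (0.45, 0.31 and 0.30), and with the 2 h group none was. With the replicate number as a block 1, 23 and 39 members were called in the E2F1 line at 2, 6 and 12 h, 3, 0 and 13 under doxycycline in the EV line and 36, 33 and 31 under serum, with 2 calls lost and 21 gained over all comparisons. The replicate block within each line, chosen after seeing the data, called 23 for E2F1 minus EV at 6 h in place of 14.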
